A study of Mus musculus with 22 samples.

Results

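The Rab GTPases are small proteins that switch between a GTP-bound, membrane-attached form and a GDP-bound form, and each marks a particular membrane of the cell. In the GTP form a Rab recruits effectors such as tethers and motors that move, dock and fuse vesicles, while exchange factors switch Rabs on, GTPase-activating proteins switch them off and a lipid (prenyl) anchor holds them in the membrane. Many Rabs come as closely related paralogues, and several of these are known for their use in neurons, where synaptic vesicles carry Rab3 proteins. The Rab genes described here were all genes whose symbol in the platform annotation is Rab followed by a number and at most a letter and further digits, a rule that uses no measured value. It selected 87 probes of 57 genes among the 25697 probes of the array.

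Total RNA was measured on 22 Illumina bead arrays of C57BL/6J mice that were either mutant in Sgms1 or wild type. The product of Sgms1, sphingomyelin synthase 1, converts ceramide to sphingomyelin in the Golgi; the labels give neither the kind of mutation nor its zygosity. Testis came from 4 mutant and 4 wild-type mice aged 27 weeks. Brain came from 4 mutant and 3 wild-type mice aged 17 weeks, and muscle, from an unnamed muscle or muscles, came from those same 7 mice, so that 15 mice were used in all. Tissue, age and cohort therefore cannot be told apart wherever testis is compared with brain or muscle. Each array was hybridised with RNA from a piece of tissue, in which fewer cells of a type and less RNA per cell cannot be told apart. Values are log2 levels after background correction and quantile normalization: those that compare tissues, and the genotype effects compared between tissues, come from all 22 arrays normalized together, and those that compare genotypes within a tissue come from the arrays of that tissue.

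The marker genes matched the labelled tissues: summed neuronal marker intensity was 20202 to 21761 in brain and at most 309 elsewhere, skeletal fibre markers summed to 53904 to 57790 in muscle and germ cell markers to 34538 to 43755 in testis. Several libraries stood apart. Sgms1 itself was at 6.59, 8.14, 6.31 and 6.57 in brains labelled mutant and at 8.33, 8.07 and 6.64 in brains labelled wild type, so the brain libraries labelled mutant 2 and wild type 3 went against their labels. In testis it was at 5.06, 5.89, 4.97 and 5.89 in mutants and at 6.07, 5.43, 6.26 and 6.55 in wild types, so wild type 2 lay below 2 of the mutants; that array also detected the fewest probes, 10560, against 11458 to 12108 on the other testis arrays. In muscle, Sgms1 was lower in all 4 mutants (7.13 to 7.50) than in the 3 wild types (7.77 to 8.12). Brain wild types 2 and 3 carried pituitary hormone RNA (growth hormone, Gh, at 14.02 and 12.17, against at most 5.80 in the other brains), and the epididymal gene Lcn8 was at 6.00 in testis wild type 4, against 11.55 to 12.23 in the other 7 testis libraries. The adipocyte markers of the muscle pieces summed to 594 to 1430 in mutants and 2177 to 4393 in wild types, and the brown fat gene Ucp1 was at 7.27 and 7.72 in muscle wild types 1 and 3, against 4.22 to 4.40 in the other 5. Testis arrays were dimmer (median raw intensity 93.7 to 107) than brain (112 to 143) and muscle arrays (133 to 143).

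A tissue was taken to express a gene measurably where 3 or more of its arrays had a detection p under 0.05 for the probe, and such probes were kept. In at least 1 tissue 70 probes of 51 Rab genes were kept; the 17 other probes include all probes of Rab2b, Rab17, Rab20, Rab30, Rab38 and Rab44. Testis kept 45 of the genes, brain 49 and muscle 40, and 39 were kept in all 3 tissues. Only brain kept Rab3b, Rab3c, Rab27b, Rab33a and Rab37, only testis kept Rab19 and Rab25, and muscle kept 0 genes of its own. Brain also had the most Rab genes detected on every array, 46, against 34 in muscle and 26 in testis. The whole array went the same way: of 25697 probes, testis kept 12487, brain 15264 and muscle 11391. Each brain array detected 57.1% to 59.5% of all probes, against 41.1% to 47.1% in testis and 41.5% to 44.6% in muscle.

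**Figure D1:**
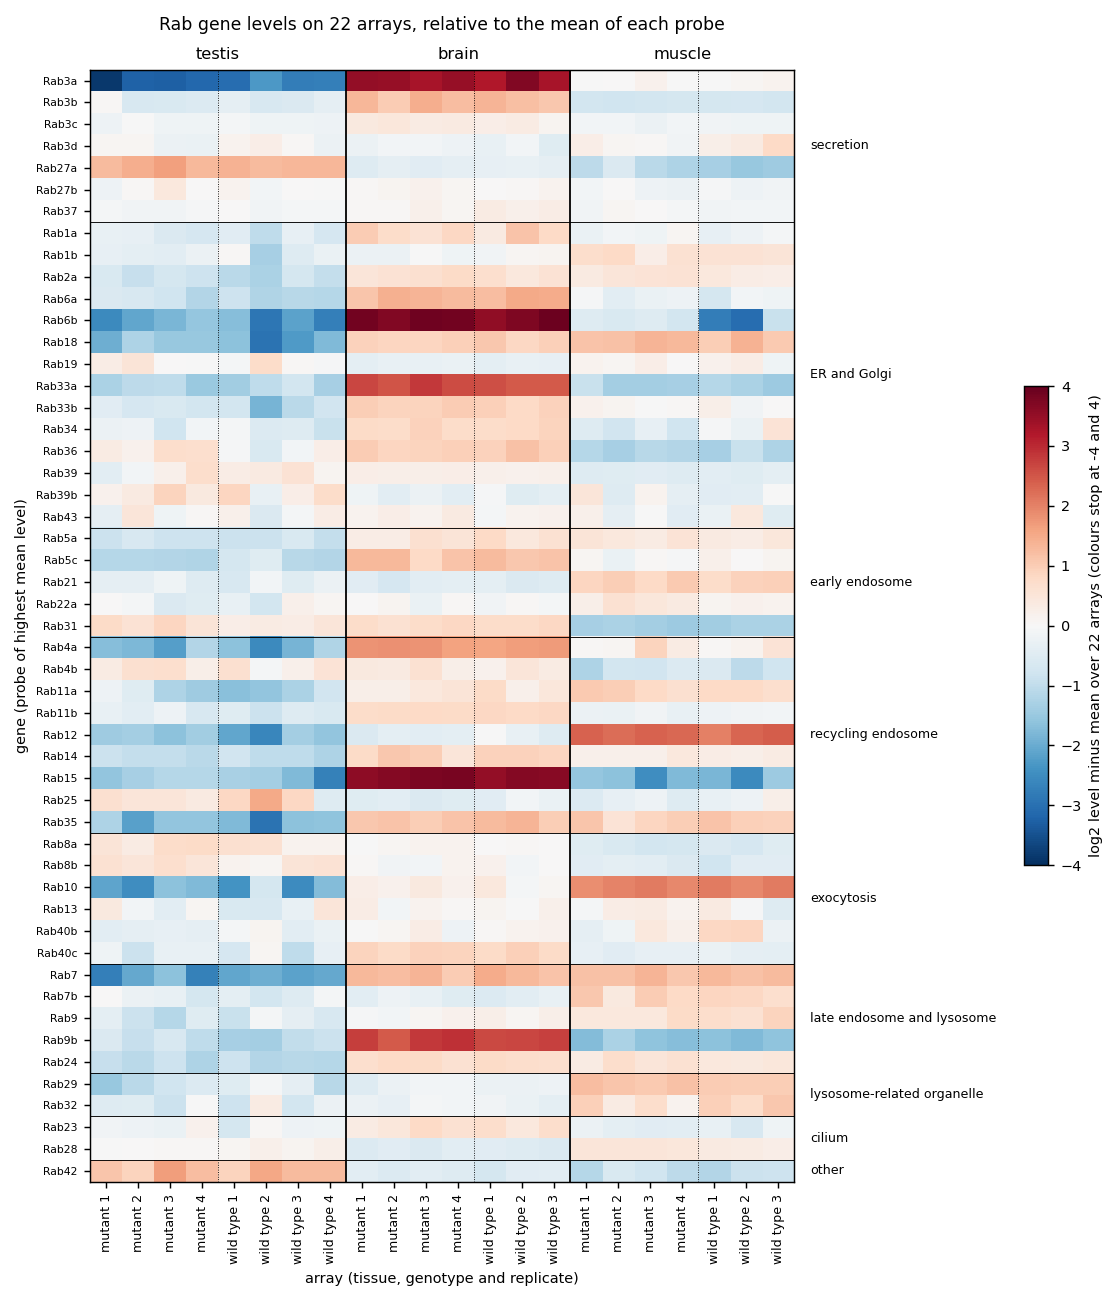
Each row is 1 Rab gene (its probe of highest mean level), grouped by the membrane it serves, and each column is 1 of the 22 arrays; the colour is the log2 level minus the mean of that probe over the 22 arrays. The brain columns of Rab15, Rab6b, Rab3a, Rab9b and Rab33a are the deepest red, the muscle columns of Rab12 and Rab10 are red, and the Rab6b row changes colour within muscle, where wild types 1 and 2 are blue.

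The first question was which tissue uses which Rab. A tissue difference was called when limma's adjusted p was under 0.05, over all 17703 probes kept in any tissue, and the change was at least 2-fold. Of the 70 Rab probes, 15 were higher in brain than in muscle, where 16.1% of all probes were, and 6 were lower, where 16.3% of all probes were (32.4% either way). Testis stood below the other tissues: 34 Rab probes were lower and 3 were higher in testis than in brain (25.3% and 21.9% of all probes, 47.3% either way), and 29 were lower and 8 higher in testis than in muscle (24.1% and 20.3%, 44.4% either way). The median Rab probe differed by 0.25 between brain and muscle, by -0.81 between testis and brain and by -0.57 between testis and muscle, beside -0.032, -0.14 and -0.067 for all probes. The balance depended on the scaling: with arrays aligned on their medians alone, the median of all probes was 0.19, -0.61 and -0.087, and the higher and lower Rab calls were 30 and 1 for brain minus muscle, 0 and 48 for testis minus brain, and 3 and 31 for testis minus muscle. The part that the dimmer testis arrays had in the lower testis values was not tested.

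Gene by gene, on the probe of highest mean level, 11 of the 51 genes were called higher in brain than in both other tissues, 2 higher in testis, and 5 higher in muscle, where 13.3%, 17.5% and 11.2% of all 11989 genes were. In the other direction 13 genes were lower in testis than in both others (13.3% of all genes), 3 were lower in muscle (4.55%) and 0 in brain (5.29%), and 15 genes were called in no comparison (32.4% of all genes). The 3 comparisons share arrays, so these patterns are not independent of one another. They were the same genes when the brain libraries in doubt and their mice were left out. Median scaling kept all 11 brain genes among 20 and all 13 genes low in testis among 20, kept Rab12 alone of the 5 muscle genes and kept neither testis gene. Without background correction fewer genes kept their pattern: 6 of the 11 brain genes and 5 of the 13 genes low in testis. The same setting kept 1 of the 2 testis genes (Rab27a), 2 of the 5 muscle genes and 1 of the 3 genes low in muscle. By role, Rabs of the endoplasmic reticulum and Golgi were higher in brain than in muscle for 5 of 14 genes and lower for 0 (16.1% and 16.3% of all probes), and recycling Rabs were lower in testis than in brain for 7 of 9 genes and higher for 0 (25.3% and 21.9%). Other groups had such counts too. Endoplasmic reticulum and Golgi Rabs were lower in testis than in brain for 8 of 14 genes and higher for 0. Late endosomal and lysosomal Rabs were lower in testis than in muscle for 4 of 5 genes and higher for 0 (24.1% and 20.3%). Not every group is given here. The role counts use 1 probe per gene, while the shares are of all probes.

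Among Rabs of regulated secretion, Rab3a, the main Rab of synaptic vesicles, was at 4.37 to 5.96 in testis (median 5.15), 11.44 to 11.95 in brain (median 11.72) and 8.22 to 8.40 in muscle (median 8.27). The 3 ranges were apart from each other, with brain on top and testis at the bottom. Its log2 difference was 3.37 ± 0.076 (SE) for brain minus muscle (10.4-fold, adjusted p = 2.14e-11, higher in brain in 7 of 7 mice) and -6.49 ± 0.16 for testis minus brain (adjusted p = 1.51e-16). Rab3b, a paralogue of secretory cells, was detected on all 7 brain arrays (6.13 to 6.55, median 6.34), on 1 of 8 testis arrays (4.47 to 5.15) and on 0 of 7 muscle arrays (4.31 to 4.45). It was at least 2.6-fold higher in brain than in muscle (adjusted p = 4.47e-10). It was at 6.32 and 6.18 in brain wild types 2 and 3, which carried pituitary hormone RNA, and at 6.13 to 6.55 in the other brains.

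Of the Golgi Rabs, Rab6b, the neuronal relative of the retrograde transport factor Rab6a, was at 4.58 to 5.92 in testis (median 5.36), 11.03 to 11.39 in brain (median 11.33) and 4.42 to 6.97 in muscle (median 6.74). Brain lay far above both ranges, which overlapped each other, and the muscle range was the widest of the 3. The difference was 5.08 ± 0.31 for brain minus muscle (33.9-fold, adjusted p = 5.98e-08, 7 of 7 mice) and -5.96 ± 0.17 for testis minus brain (62.1-fold lower in testis, adjusted p = 1.97e-15). Rab6a was at 7.86 to 8.48 in testis, 10.19 to 10.57 in brain and 8.36 to 9.01 in muscle, a brain minus muscle difference of 1.62 ± 0.089 (3.06-fold, adjusted p = 2.8e-08). Rab33a, a Golgi Rab also found on vesicles of growing axons, was at 8.13 to 8.50 in brain (median 8.25), while 1 of 8 testis arrays (4.19 to 4.96) and 0 of 7 muscle arrays (4.23 to 4.79) detected it. It was at least 9.82-fold higher in brain than in muscle (adjusted p = 8.13e-12).

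Among endosomal Rabs, Rab15, which sorts receptors at early and recycling endosomes and is known for its neural expression, was at 5.03 to 6.58 in testis (median 6.38), 11.26 to 11.53 in brain (median 11.39) and 5.18 to 6.28 in muscle (median 5.95). That was the widest gap of any Rab gene between brain and the nearer of the other tissues, with 5.56 ± 0.15 for brain minus muscle (47.2-fold, adjusted p = 9.71e-11) and -5.19 ± 0.17 for testis minus brain (adjusted p = 1.15e-14). Rab9b, a relative of the Rab that returns receptors from late endosomes to the trans-Golgi network, was at 4.66 to 5.44 in testis, 8.45 to 8.92 in brain and 4.25 to 4.76 in muscle, where 0 of 7 arrays detected it. It was at least 13.4-fold higher in brain than in muscle (adjusted p = 2.67e-11) and lower in testis than in brain by 3.66 ± 0.11 (adjusted p = 2.67e-15). Rab4a, of the fast recycling route, was at 4.33 to 5.72 in testis, 8.47 to 8.71 in brain and 6.94 to 7.79 in muscle, so all 3 ranges were apart. Its brain minus muscle difference was 1.41 ± 0.11 (adjusted p = 3.72e-07). Rab40c, which joins a ubiquitin ligase, the early endosomal Rab5c and Rab34 completed the 11 genes, with brain minus muscle differences of 1.20, 1.12 and 1.10. Rab34 had 3 kept probes, and the others gave 0.30 and 0.29, not called. Without background correction these 3 genes, and Rab3b and Rab4a, were no longer called above both other tissues. Rab34 also fell out with a larger offset, as Rab3b did, with the authors' processed values, as Rab5c did, and on wild-type arrays alone.

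**Figure D2:**
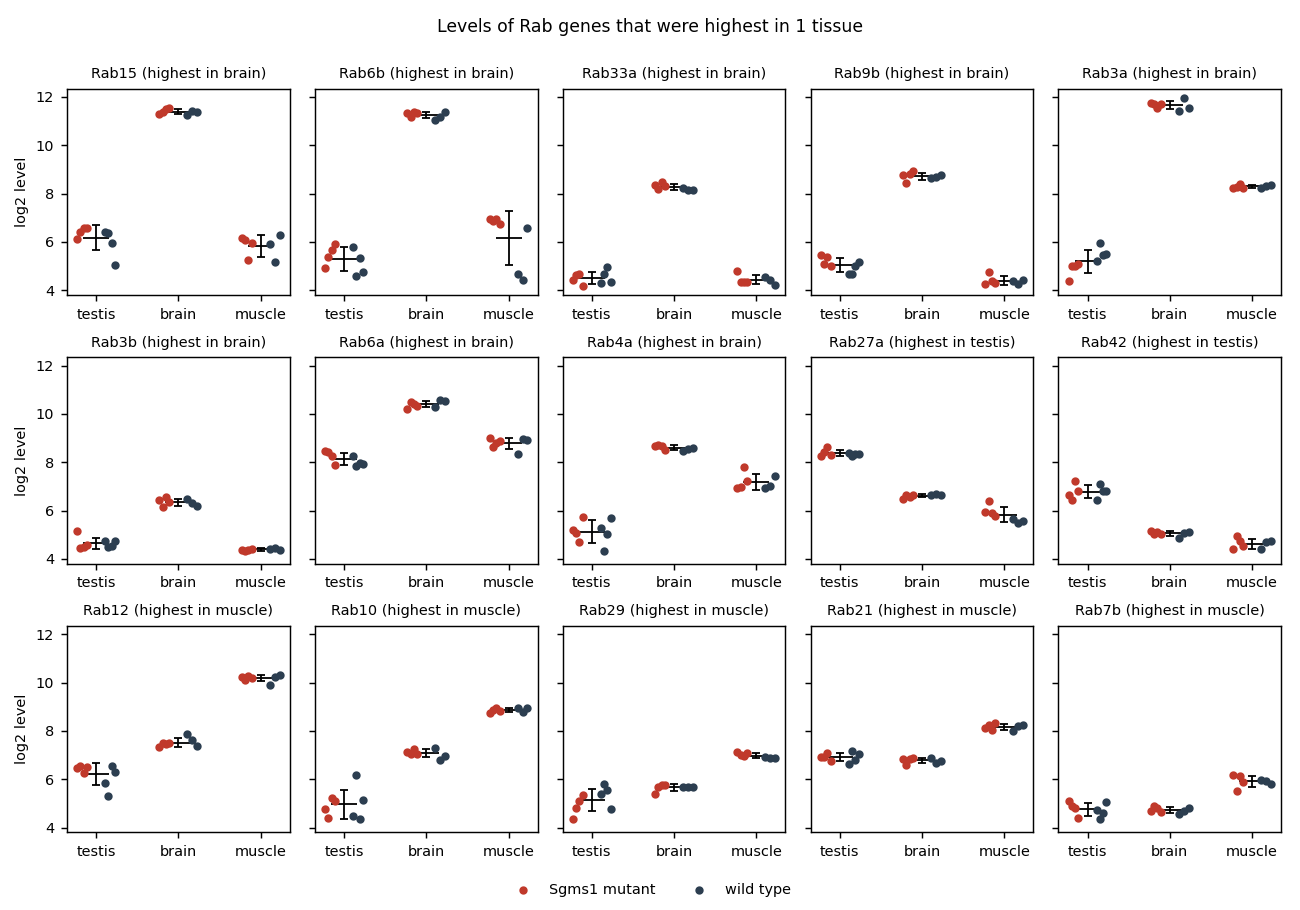
Log2 levels of the 15 Rab genes named as highest in 1 tissue; each point is 1 array, red for Sgms1 mutant and dark for wild type, and the black bar and whiskers are the mean and SD over the arrays of a tissue (8 testis, 7 brain, 7 muscle). Brain points of Rab15, Rab6b and Rab3a lie above 11, and the muscle points of Rab6b split into 5 between 6.58 and 6.97 and 2 between 4.42 and 4.69, both of them wild type.

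Promoter sequence is shown for a paralogue pair that differed between tissues (Rab6b and Rab6a), for 2 other genes highest in brain (Rab33a and Rab9b), and for a gene highest in muscle (Rab12) and one highest in testis (Rab42), so that the letters can be read beside these levels. Each is the 250 bases before the annotated start, from RefSeq on assembly GRCm38.p6, written 5′ to 3′ along the gene. Capitals mark any of the 6 motifs searched, on either strand: the GC box GGGCGG, the TATA core TATAAA, the cAMP response element TGACGTCA, the E-boxes CACGTG and CAGCTG, and the half-site TTCAGCACC of the neuronal repressor element. Overlapping matches were all capitalised.
Rab6b, chr9:103111824-103112073, plus strand: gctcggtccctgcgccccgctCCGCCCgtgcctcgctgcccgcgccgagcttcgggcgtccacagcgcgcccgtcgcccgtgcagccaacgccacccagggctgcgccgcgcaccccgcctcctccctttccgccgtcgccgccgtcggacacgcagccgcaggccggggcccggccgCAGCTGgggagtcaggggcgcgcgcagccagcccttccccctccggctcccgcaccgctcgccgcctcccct
Rab6a, chr7:100607336-100607585, plus strand: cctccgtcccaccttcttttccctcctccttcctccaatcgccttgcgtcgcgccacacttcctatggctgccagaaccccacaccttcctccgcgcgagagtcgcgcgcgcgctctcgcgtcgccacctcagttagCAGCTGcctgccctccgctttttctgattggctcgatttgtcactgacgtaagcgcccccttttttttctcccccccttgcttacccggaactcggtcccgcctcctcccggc
Rab33a, chrX:48519035-48519284, plus strand: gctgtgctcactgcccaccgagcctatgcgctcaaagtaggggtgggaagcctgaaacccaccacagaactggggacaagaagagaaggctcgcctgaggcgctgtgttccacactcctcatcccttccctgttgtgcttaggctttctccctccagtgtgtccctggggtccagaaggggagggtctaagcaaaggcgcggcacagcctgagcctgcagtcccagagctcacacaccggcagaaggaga
Rab9b, chrX:136868557-136868806, minus strand: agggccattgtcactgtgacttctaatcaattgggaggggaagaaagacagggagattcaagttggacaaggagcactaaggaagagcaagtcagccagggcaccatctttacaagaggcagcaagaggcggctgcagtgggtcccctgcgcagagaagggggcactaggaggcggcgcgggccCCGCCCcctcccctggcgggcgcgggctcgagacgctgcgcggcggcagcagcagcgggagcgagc
Rab12, chr17:66519671-66519920, minus strand: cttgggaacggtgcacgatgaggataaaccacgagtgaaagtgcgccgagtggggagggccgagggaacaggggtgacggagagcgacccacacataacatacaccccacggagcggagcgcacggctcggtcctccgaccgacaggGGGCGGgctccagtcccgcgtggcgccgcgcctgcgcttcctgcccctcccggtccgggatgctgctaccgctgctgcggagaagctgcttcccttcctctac
Rab42, chr4:132303357-132303606, minus strand: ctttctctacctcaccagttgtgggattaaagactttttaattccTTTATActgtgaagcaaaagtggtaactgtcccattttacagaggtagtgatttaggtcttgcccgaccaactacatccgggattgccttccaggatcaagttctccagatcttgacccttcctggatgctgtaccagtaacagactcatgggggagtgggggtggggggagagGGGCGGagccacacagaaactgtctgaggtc
Of these 6, Rab6b, Rab9b, Rab12 and Rab42 hold a GC box, Rab6b and Rab6a hold CAGCTG, Rab42 alone holds a TATA core, and Rab33a holds none of the 6. The tables held 60 promoters of 48 Rab genes, and 66.7% of them had a GC box, against 32.7% of all 32851 promoters; their median GC content was 60.2%, against 52.4%. The share was 6.67% against 12.4% for TATAAA, 8.33% against 6.02% for CACGTG, 15% against 13% for CAGCTG and 3.33% against 1.55% for TGACGTCA (Rab5a and Rab25). TTCAGCACC occurred in 0 of the 60, where 0.301% of all promoters hold it. A match is a run of letters and not a shown binding site.

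Testis had 2 genes above both other tissues. Rab27a, which docks melanosomes, lytic granules and other secretory lysosomes, was at 8.27 to 8.63 in testis (median 8.33), 6.50 to 6.70 in brain (median 6.63) and 5.47 to 6.41 in muscle (median 5.77). The testis range stood above the others, and the difference was 1.75 ± 0.069 from brain (3.36-fold, adjusted p = 1.59e-13) and 2.56 ± 0.10 from muscle (adjusted p = 5.32e-13). Under median scaling the testis minus brain difference of Rab27a was 0.21 with adjusted p = 0.212, which ends that call. Rab42 was at 6.44 to 7.23 in testis, 4.85 to 5.14 in brain and 4.39 to 4.94 in muscle, where its probe was detected on 0 of 7 arrays. It was 3.33-fold higher in testis than in brain (1.73 ± 0.11, adjusted p = 2.2e-10; 0.60 under median scaling) and at least 3.52-fold higher than in muscle. A second Rab42 probe gave 1.23 and 1.38 for the same comparisons.

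Rab25, a Rab of epithelial recycling endosomes and 1 of the 2 genes kept in testis alone, was singled out after its values were seen. It was at 4.78, 4.71, 4.70 and 4.65 in mutant testes and at 4.89, 5.33, 4.90 and 4.27 in wild-type testes. The 1 undetected testis library, wild type 4, was also the library with little epididymal RNA, where Lcn8 was 6.00 and Lcn5 4.33, against 5.58 to 6.93 for Lcn5 in the others. The part of the epididymal RNA in the Rab25 level was not tested. These levels come from the testis arrays normalized on their own, a scale lower than that of the ranges given before. On that scale Rab27a was at 7.12 and Rab42 at 5.68 in the same library, inside the range of the other testes. The part of epididymal RNA in the Rab27a and Rab42 levels was not tested either. Rab19, the other gene kept in testis alone, was detected on 3 of 8 testis arrays.

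The genes furthest below both other tissues in testis were Rab7, Rab3a, Rab18 and Rab35. Rab7, which drives late endosomes to lysosomes, was at 6.82 to 7.93 in testis (median 7.49), 10.58 to 11.05 in brain (median 10.86) and 10.64 to 10.94 in muscle (median 10.74). Testis was lower by 3.45 ± 0.14 than brain (adjusted p = 2.67e-13) and by 3.40 ± 0.14 than muscle, while brain and muscle differed by 0.044 ± 0.06. The 2 other kept Rab7 probes gave -1.26 and -0.86 for testis minus brain, and for brain minus muscle they gave -1.17 (called lower in brain, adjusted p = 2.08e-07) and -0.77. Rab18, of the endoplasmic reticulum and lipid droplets, was at 4.21 to 5.92 in testis, 7.97 to 8.23 in brain and 8.15 to 8.53 in muscle. Rab35, which returns cargo from endosomes to the plasma membrane, was at 5.21 to 6.91 in testis, 9.15 to 9.53 in brain and 8.72 to 9.30 in muscle. Their testis minus brain differences were -2.75 ± 0.18 and -2.95 ± 0.19 (adjusted p = 1.88e-10 and 1.59e-10). Early and recycling Rabs made up much of the rest, with Rab5a, Rab5c, Rab4a, Rab11a, Rab12 and Rab14 among the 13.

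In muscle Rab12, which sends transferrin receptor from recycling endosomes to lysosomes, was at 5.29 to 6.55 in testis (median 6.39), 7.32 to 7.87 in brain (median 7.50) and 9.92 to 10.32 in muscle (median 10.22). The 3 ranges were apart with muscle on top, and the difference was -2.66 ± 0.10 for brain minus muscle (6.33-fold lower in brain, adjusted p = 1.28e-09, 7 of 7 mice) and -3.95 ± 0.16 for testis minus muscle (adjusted p = 3.19e-13). Rab10, which carries an insulin-responsive glucose transporter to the surface of adipocytes, was at 4.36 to 6.16 in testis, 6.81 to 7.28 in brain and 8.73 to 8.95 in muscle. Its brain minus muscle difference was -1.78 ± 0.068 (adjusted p = 1.3e-09) and -0.96 under median scaling, below 2-fold. Within muscle the groups overlapped on this Rab10 probe, at 8.38 to 8.62 in mutants and 8.45 to 8.62 in wild types. The adipocyte gene Adipoq was at 8.30 to 9.78 in mutants and 10.41 to 11.46 in wild types. Another Rab10 probe differed by -0.56, mutant minus wild type, and was not called (limma's adjusted p = 0.396). The part of adipocyte RNA in the Rab10 levels was not tested. Rab29 of the trans-Golgi, Rab21 of early endosomes and Rab7b, which returns cargo from late endosomes to the Golgi, were lower in brain than in muscle by 1.32, 1.39 and 1.19. These 3 fell below 2-fold under median scaling, at -0.44, -0.52 and -0.73.

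The 3 genes lowest in muscle were Rab31, Rab36 and Rab4b. Rab31, which moves cargo from the trans-Golgi network to endosomes, was at 9.12 to 9.71 in testis, 9.47 to 9.70 in brain and 7.42 to 7.60 in muscle. Testis and brain overlapped, and muscle was lower than brain by 4.23-fold (brain minus muscle 2.08 ± 0.062, adjusted p = 1.81e-10). Rab36, a relative of Rab34, was detected on 7 of 8 testis, 7 of 7 brain and 0 of 7 muscle arrays. It was at least 2.92-fold higher in brain than in muscle. Rab4b had differences of 1.19 ± 0.11 for brain minus muscle and 1.22 ± 0.13 for testis minus muscle. For Rab36 and Rab4b the testis minus muscle difference under median scaling was 0.74 and 0.75, below 2-fold.

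Among the 24 genes detected on all 22 arrays, the flattest were Rab3d, Rab22a, Rab28, Rab8b, Rab1b and Rab8a, with a largest tissue difference of 0.45 to 1.11. Rab3d, of secretory granules, was at 6.66 to 7.18 in testis, 6.44 to 6.83 in brain and 6.79 to 7.72 in muscle, ranges that overlap. Some of this depends on the probe. Of 14 genes with several kept probes, 5 gave the same calls on every probe in every comparison and 9 did not, and for 6 of them (Rab1b, Rab7, Rab8b, Rab13, Rab28 and Rab34) some comparison had probes of opposite sign. Of the flattest genes, Rab28, a Rab of cilia, gave 0.59 and -1.38 for testis minus brain on its 2 probes, and Rab8b, of exocytosis and cilia, gave 0.45 and -1.21, and the second Rab22a probe was called lower in testis than in brain (-1.02) and than in muscle (-1.46), so flatness there belongs to a probe rather than to the gene.

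The second question was how paralogues divide the tissues. Levels of different probes cannot be compared, so each pair was compared in its tissue differences, on 1 probe per gene. Of 30 pairs listed, 24 had both probes kept in some tissue. Between brain and muscle 21 of 24 pairs had tissue differences unlike each other (exact two-sided sign-flip test over 7 mice, p = 0.0156 in each, the smallest it allows), but 11 pairs had both members kept in both of these tissues; of these 9 passed the test, all 9 by at least 2-fold. Between testis and brain 20 of 24 pairs had a p under 0.05 (exact permutation test, smallest possible p = 0.000155), and of the 13 pairs with both members kept in both tissues 9 did, 6 of the 13 being at least 2-fold apart. The signs depended on the scaling: brain minus muscle was of opposite sign in 7 of the 11 pairs, and in 2 under median scaling, and testis minus brain in 4 of the 13, and in 1 under median scaling. With these p-values unadjusted over 24 pairs, and with brain arrays shared, the counts are descriptions of how often these pairs part. Members of the Rab3 and Rab11 subfamilies enter several pairs each. Pairs of unrelated genes were not counted, so the counts do not show that paralogues part more or less often than other genes.

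Of the 11 pairs measured in brain and muscle, Rab3a and Rab3d were furthest apart in brain minus muscle, at 3.37 and -0.45, a gap of 3.82 ± 0.40 (SD over 7 mice); under median scaling Rab3d was at 0.53. Rab6a and Rab6b were both on the brain side, 1.62 against 5.08, and Rab22a and Rab31 were at -0.33 and 2.08 (0.67 and 2.91 under median scaling). Rab1a, of endoplasmic reticulum to Golgi transport, was at 0.93 and Rab1b at -0.68, and the recycling Rab11a was at -0.41 and Rab11b at 0.99. Under median scaling these pairs lay on the brain side, with 1.96 and 0.15 for Rab1a and Rab1b and 0.58 and 0.98 for Rab11a and Rab11b. Without that scaling the other kept Rab1b probes were at 0.054 and 0.073, not called. Rab40b and Rab40c were at -0.14 and 1.20 (0.014 and 2.01 under median scaling). Rab7 and Rab7b were at 0.044 and -1.19, although the 2 other Rab7 probes were at -1.17 and -0.77. Where 0 of 7 muscle arrays detected a member, its value is a bound. Rab9b was at least 13.4-fold higher in brain, beside -0.51 for Rab9 (0.43 under median scaling), Rab33a was at least 9.82-fold higher, beside 0.86 for its relative Rab33b, a Golgi Rab that also acts in autophagosome formation, and Rab3b was at least 2.6-fold higher.

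Some pairs passed the test along 1 axis and not along the other. Brain minus muscle was 1.41 for Rab4a and 1.19 for Rab4b, with a gap of 0.22 ± 0.44 (SD over mice, exact p = 0.188). Testis minus brain was -3.47 for Rab4a and 0.03 for Rab4b (exact p = 0.000155). Rab22a and Rab31 showed the reverse, with a testis minus brain gap of 0.038 (exact p = 0.828). That holds for the Rab22a probe used, as the second Rab22a probe was at -1.02 for testis minus brain, called lower. For Rab8a and Rab8b neither axis gave a gap past the test: 0.17 ± 0.33 (exact p = 0.188) and -0.0089 (exact p = 0.953). This too holds for the Rab8b probe used, as the second Rab8b probe was at -1.21 for testis minus brain, called lower. With median scaling 20 of the 24 pairs passed the test on each axis.

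**Figure D3:**
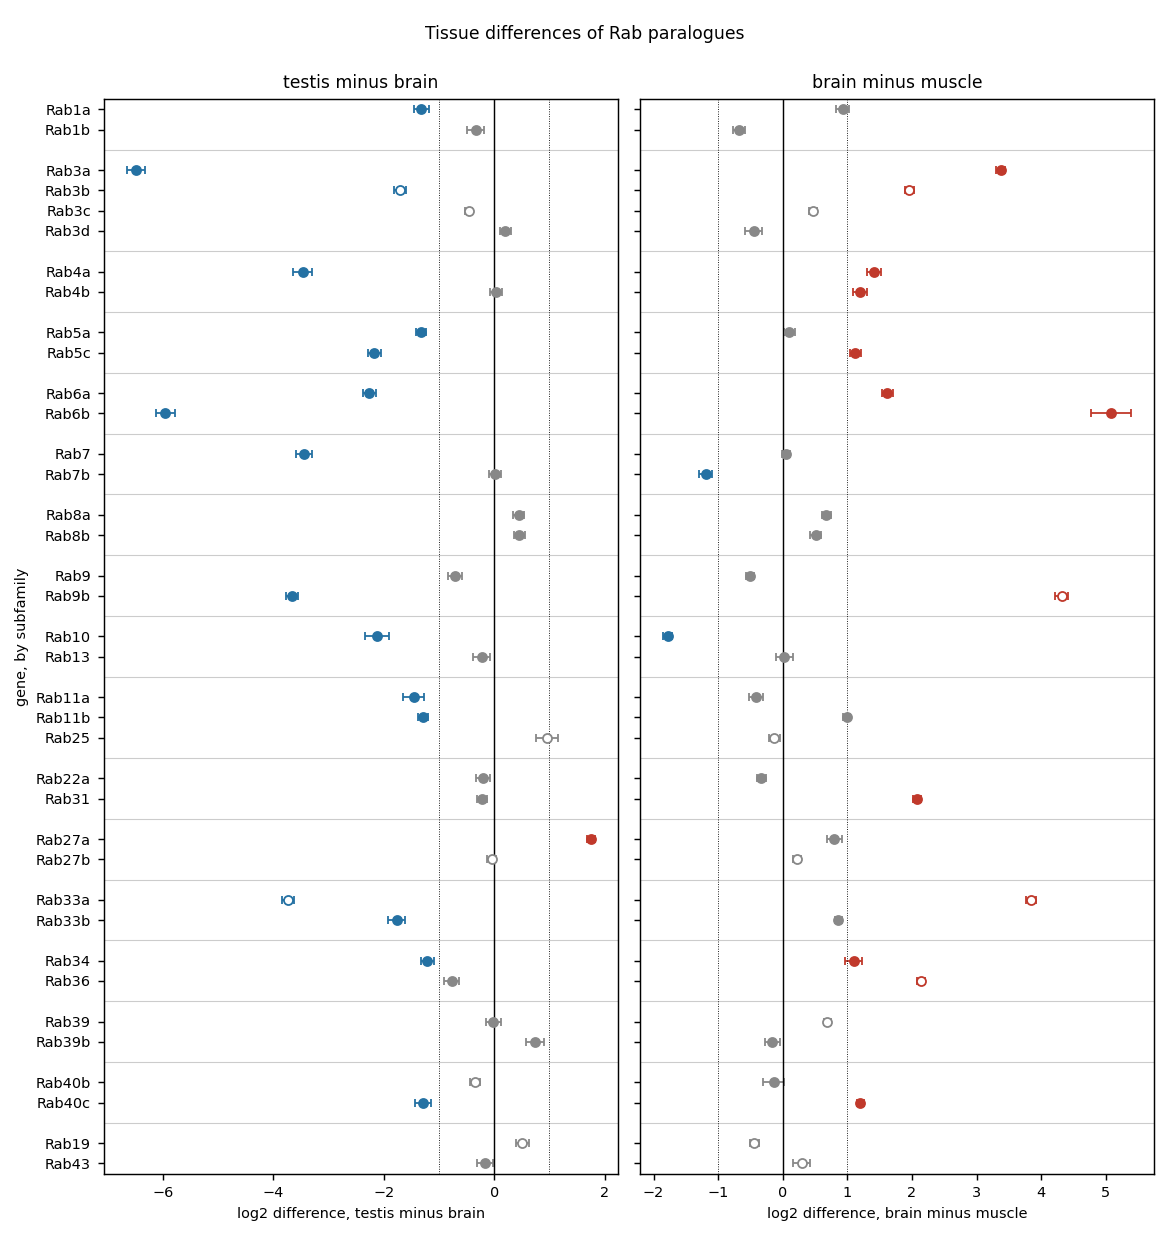
Log2 tissue difference of each paralogue (points) with its SE (bars), testis minus brain on the left and brain minus muscle on the right; red points are called higher, blue points called lower and grey points not called, and dotted lines mark 2-fold. Open points have a tissue with fewer than 3 arrays detecting the probe, so their size is not measured in full. Of pairs with filled points, Rab3a and Rab3d, and Rab6a and Rab6b, lie furthest apart on the right, while Rab8a and Rab8b lie close together on both sides.

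The proteins that run the Rab cycle were taken from lists, whose counts stand beside 16.1% higher and 16.3% lower of all probes for brain minus muscle, 21.9% and 25.3% for testis minus brain, and 20.3% and 24.1% for testis minus muscle. Of the prenylation and recycling machinery 6 of 9 genes were tested: 0 were called between brain and muscle, 3 were higher and 2 lower in testis than in brain, and 2 were higher and 1 lower in testis than in muscle. Rabggta and Rabggtb, the 2 subunits of the enzyme that attaches the lipid anchor, went opposite ways in testis against brain, with Rabggta at 7.59 in testis and 5.87 in brain (1.73 ± 0.085, adjusted p = 3.7e-12) and Rabggtb at 8.17 and 9.59 (-1.42 ± 0.10, adjusted p = 4.05e-10). Rabif, a chaperone of nucleotide-free Rabs, was higher in testis than in brain by 2.29 ± 0.091, and the prenyl-binding Pde6d by 1.54 ± 0.093. Of 22 exchange factors tested, 3 were higher and 4 lower in brain than in muscle, 3 higher and 5 lower in testis than in brain, and 3 higher and 6 lower in testis than in muscle. Rabgef1, an exchange factor for Rab5, was lower in brain than in muscle by 2.36 ± 0.057 and Rin1, another, was higher by 1.97 ± 0.15; Rab3il1 was higher in testis than in brain by 2.73 ± 0.092.

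Of 29 GTPase-activating proteins, 6 were higher and 3 lower in brain than in muscle, and 8 were higher and 5 lower in testis than in brain. Testis against muscle also gave 8 higher and 5 lower, counted separately and not necessarily the same genes. Sgsm1 was higher in brain than in muscle by 4.41 ± 0.13, Tbc1d1 was higher in testis than in brain by 3.23 ± 0.074, and Rab3gap1, the catalytic subunit of the Rab3 GTPase-activating complex, was lower in testis than in brain by 2.97 ± 0.11. Effectors, with 38 tested, were higher in brain than in muscle for 9 and lower for 7, higher in testis than in brain for 6 and lower for 20, and higher in testis than in muscle for 8 and lower for 11. Rph3a, the Rab3 effector rabphilin, was at 9.22 in brain, with 0 of 8 testis and 0 of 7 muscle arrays detecting it. Rims3 and Rufy3, both known from neurons, were higher in brain than in muscle by 5.77 ± 0.10 and 5.65 ± 0.13, whereas Rilp, the Rab7 effector that binds dynein, was lower by 4.38 ± 0.067. Mical3, an effector in exocytosis, was higher in testis than in brain by 6.46 ± 0.12. The list of synaptic and regulated secretion genes had 14 of 20 members tested. Of these, 14 were higher in brain than in muscle and 14 lower in testis than in brain, with medians of 6.06 and -5.70. In testis 2 were higher and 3 lower than in muscle. Brain kept 14 of the members, testis 6 and muscle 4. The list names synaptic genes and most members were kept through brain alone, so these brain counts were largely fixed by that choice. Snap25, a member that was not tested, was detected on 0 brain arrays. The largest values of the list were those of Cplx1 (8.35), Syn1 (8.10), Syp (7.04) and Sv2a (6.89) for brain minus muscle. All lists were chosen with results of these data known.

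The third question was whether the Sgms1 mutation moved any Rab. At limma's adjusted p under 0.05, 0 of 56 Rab probes were called in testis (0% of all probes), 0 of 68 in brain (0%) and 0 of 56 in muscle (0.105%). At an unadjusted p under 0.05 there were 3 in testis (5.36%, against 5.53% of all probes), 2 in brain (2.94% against 3.85%) and 10 in muscle (17.9% against 9.18%). All 56 testis and all 68 brain differences lay within 0.50 on the log2 scale, from -0.33 to 0.36 in testis and from -0.35 to 0.30 in brain, with a median SE of 0.15 and 0.12. In muscle 52 of 56 did, and the range was -0.70 to 1.35. For all lists of the Rab cycle and for the secretion list 0 genes were called in any tissue. Sgms1, the mutated gene, was not called in any tissue either. Its mutant minus wild type difference was -0.62 ± 0.27 in testis (limma's adjusted p = 0.834), -0.78 ± 0.45 in brain and -0.70 ± 0.13 in muscle (adjusted p = 0.0871). A lack of calls at these sample sizes therefore does not show a lack of change.

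**Figure D4:**
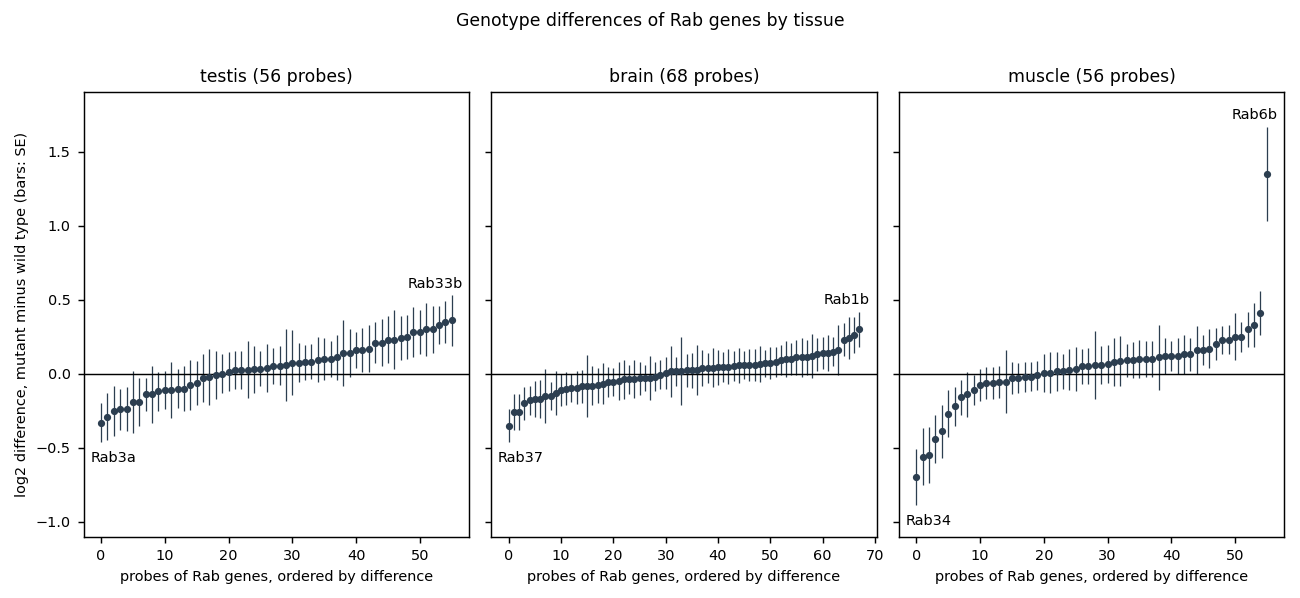
Log2 difference, mutant minus wild type, of every Rab probe kept in a tissue, ordered by size, with SE as bars (4 mutant and 4 wild-type testes, 4 and 3 brains, 4 and 3 muscles). The lowest and highest probe of each tissue are named; all values but those of muscle lie between -0.35 and 0.36, and Rab6b in muscle stands alone at 1.35.

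Rab6b in muscle had the largest difference of any Rab probe in the study. Its level was 6.45, 6.34, 6.45 and 6.20 in mutant muscles and 4.57, 4.44 and 6.04 in wild-type muscles, and the raw intensities were 212, 179, 206 and 184 against 143, 136 and 184. All 4 mutants and wild type 3 were detected and wild types 1 and 2 were not. In the normalized level no wild type reached the lowest mutant, while in raw intensity wild type 3 equalled mutant 4 and exceeded mutant 2. Mutants exceeded wild types by 1.35 ± 0.32 (SE), which was not called (adjusted p = 0.176); the exact permutation test gave p = 0.0571, the smallest that 4 against 3 allows. The lack of a call rested on wild type 3: without that library the difference was 1.84 ± 0.13 with adjusted p = 0.00087, where 0.198% of all probes are called. The size of the difference rested on wild types 1 and 2. Without wild type 1 it was 1.11 ± 0.34 and without wild type 2 it was 1.06 ± 0.32, neither called. Leaving out wild types 1 and 3, the libraries with Ucp1, leaves 1 wild type, whose spread cannot be measured, and a difference of 1.88. Wild type 3 comes from the mouse whose brain library went against its label, while its muscle Sgms1 level of 8.12 was the highest of all muscles. Of 7 neuronal markers, which summed to 215 to 250 in mutant muscles and 213 to 275 in wild-type muscles, 2 were detected there. Syp, which marks synaptic vesicles, was at 5.35 to 5.47 in mutants and 5.41, 5.95 and 6.19 in wild types, and Stmn2 was at 5.43, 5.57, 5.10 and 5.21 in mutants and 4.98, 5.28 and 5.28 in wild types. The part of neuronal RNA in the Rab6b level was not tested. In brain Rab6b was at 12.07, 11.92, 12.10 and 12.08 in mutants and 11.77, 11.93 and 12.12 in wild types, and in testis at 4.49 to 5.03 in mutants and 4.36 to 4.94 in wild types, so both tissues overlapped.

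The other muscle genes of smallest p did not pass either. Rab34, which acts in ciliogenesis and in lysosome positioning, was at 5.45, 5.23, 5.64 and 5.18 in mutants and 5.95, 5.71 and 6.56 in wild types (-0.70 ± 0.19, adjusted p = 0.258), and its second kept probe gave -0.55 ± 0.19 (adjusted p = 0.397). Rab3d was at 6.70, 6.47, 6.46 and 6.26 in mutants and 6.65, 6.79 and 7.30 in wild types (-0.44 ± 0.16, adjusted p = 0.434). For both genes wild type 3 was the highest library, which was also the highest in Adipoq (11.46, against 10.41 and 10.51 in the other wild types and 8.30 to 9.78 in mutants). Whether the adipocyte RNA had a part in the Rab34 and Rab3d values was not tested. Rab27a was at 5.40, 5.86, 5.37 and 5.23 in mutants and 5.13, 4.98 and 5.06 in wild types (0.41 ± 0.15, adjusted p = 0.429). Slow fibre markers were highest in mutants 1 and 2. Of these markers Tnnt1 was at 10.27, 10.89, 7.35 and 8.66 in mutants and 6.76, 7.17 and 7.14 in wild types (all 22 arrays normalized together). On the same scale Tnnc1 was at 10.19, 10.47, 7.05 and 8.43 in mutants and 8.57, 7.89 and 7.00 in wild types. Myl2 was at 11.31, 11.64, 7.75 and 9.24 in mutants and 10.11, 9.48 and 8.48 in wild types. Both Tnnc1 and Myl2 overlapped between genotypes. The part of slow fibre RNA in the Rab27a level was not tested. A second Rab10 probe was at 5.06, 4.44, 5.35 and 4.71 in mutants and 5.58, 5.33 and 5.42 in wild types (-0.56 ± 0.19, adjusted p = 0.396). Rab22a differed by 0.30 ± 0.12, mutant minus wild type (adjusted p = 0.453).

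**Figure D5:**
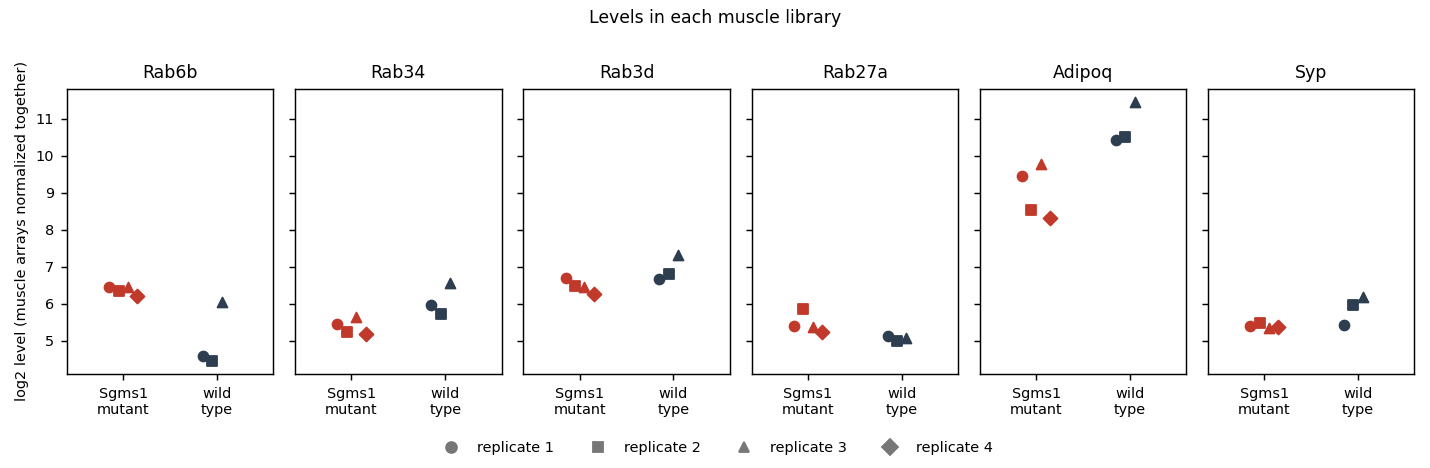
Log2 level in each of the 7 muscle libraries, Sgms1 mutant on the left and wild type on the right of each panel, with a symbol for each replicate number; Adipoq marks adipocytes and Syp synaptic vesicles. Rab6b is at 6.20 to 6.45 in mutants with wild type 3 just below at 6.04 and the other wild types under 5, Rab34 and Rab3d are highest in wild type 3, as Adipoq is, and Syp is at 5.35 to 5.47 in mutants and up to 6.19 in wild types.

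In testis the genes of smallest p were Rab31, Rab36 and Rab3a. Rab31 was at 8.44, 8.24, 8.54 and 8.18 in mutants and 7.94, 8.01, 7.96 and 8.16 in wild types, which is 0.33 ± 0.13 with no overlap (adjusted p = 0.834; exact permutation p = 0.0286, the smallest that 4 against 4 allows). Rab3a was at 4.27, 4.54, 4.52 and 4.58 in mutants and 4.63, 5.06, 4.76 and 4.79 in wild types (-0.33 ± 0.13, adjusted p = 0.834). Rab36 differed by 0.35, Rab33b by 0.36, Rab18 by 0.30 and Rab6a by 0.28, all with adjusted p = 0.834 and all with overlapping groups. Testis wild type 2, the array with the fewest detected probes, was the lowest library for both Rab33b (4.84) and Rab18 (4.17). Without it Rab33b differed by 0.20 and Rab18 by 0.19, and 1 of 55 Rab probes had an unadjusted p under 0.05.

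In brain the probe of smallest p was that of Rab37, a Rab of secretory granules, near the detection limit: 4.41, 4.43, 4.71 and 4.51 in mutants, 1 of them detected, and 4.96, 4.74 and 4.89 in wild types, all detected (-0.35 ± 0.11, adjusted p = 1). The wild types with pituitary hormone RNA were at 4.74 and 4.89 and the one without it at 4.96; the part of that RNA in the Rab37 level was not tested. Rab3c, on synaptic vesicles, was at 5.28, 5.39, 5.20 and 5.21 in mutants and 5.09, 5.18 and 4.77 in wild types (0.26 ± 0.12). Rab7 differed by -0.26 on each of 2 probes, Rab1b by 0.30, Rab8a by 0.23 and Rab9 by -0.20. With the brain libraries labelled mutant 2 and wild type 3 left out, 0 of 67 Rab probes were called and 1 had an unadjusted p under 0.05.

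Genotype effects were also compared between tissues. Over 70 Rab probes 0 were called for brain minus muscle (0.0113% of all probes were), 0 for testis minus brain (0%) and 0 for testis minus muscle (0.00565%), and the unadjusted p was under 0.05 for 8, 3 and 9 of them, beside 6.65%, 4.62% and 6.58% of all probes. Rab6b led brain minus muscle, with a difference of genotype effects of -1.56 ± 0.39 (adjusted p = 0.394). Without the mouse of wild type 3 it was -2.11 with adjusted p = 0.0256, and without the mice of both brain libraries in doubt it was -2.03 with adjusted p = 0.123. Rab34 (0.67, adjusted p = 0.433) and Rab42 (-0.47, adjusted p = 0.525) came next. For testis minus brain the leading probes were those of Rab36 (0.69), Rab3a (-0.71) and Rab31 (0.37), each with adjusted p = 0.981. For testis minus muscle they were those of Rab42 (-0.88, adjusted p = 0.529) and Rab34 (0.85 and 0.87, adjusted p = 0.603 and 0.615). Both Rab42 values belong to its probe of lower mean level. The Rab42 probe of highest mean level gave 0.013 for brain minus muscle and -0.065 for testis minus muscle.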

How the data were processed

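Per the labels, total RNA was extracted with Trizol, amplified to biotinylated cRNA and hybridised to Illumina arrays; the submitters' processing notes name GenomeStudio 2011.1. The authors deposited, for each probe on each array, a linear intensity (not normalized, per the file headers) and a detection p-value. Their processed values, of unknown scaling (unit treated as a score), were deposited too and served as an alternative. Function neqc of limma 3.58.1 (R 4.3.3) removed background from the intensities (negative controls inferred from detection p, offset 16), quantile-normalized them and took log2. Comparisons used lmFit and eBayes, two-sided, with Benjamini-Hochberg adjustment over all probes kept: genotypes without a block, brain minus muscle with the mouse as a block, comparisons with testis with genotype as a covariate. A fold against a tissue with 0 detecting arrays is a bound ("at least"), set by the weakest signal each array detected. Differences of single probes are on the log2 scale with SE; exact permutation tests used scipy 1.17.1. Replicates of a group were separate mice per the labels. The numbers that genotypes share did not pair the samples: correlations of the deviations of same-numbered libraries were -0.014 to 0.019 in testis, -0.012 to 0.135 in brain and 0.015 to 0.100 in muscle. The pairing of brain with muscle came from the mouse identifiers.

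Named genes were, per tissue, up to 8 called higher and 4 called lower than in both other tissues, the 6 flattest, members of split paralogue families, the 6 genes of smallest genotype p per tissue, the 3 probes of smallest p per difference of genotype effects, and up to 4 genes per regulator list and comparison. The members and lists were chosen with earlier results of these data known. The fits were tested on simulated data with known changes. Alternatives were other background corrections, offsets, scalings, filters, blocks and left-out libraries.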

Additional observations from a re-analysis of the deposited data

Results flagged for a closer look

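Among 98 groups of 4 arrays, all 22 arrays normalized together, tested for a lone far value with Dixon's test, 5 were picked out, where chance picks about 1 in 20. Rab35 was at 5.21 in testis wild type 2, against 6.38 to 6.56 in the other wild-type testes. Rab33a was at 4.79 in muscle mutant 1, against 4.34 to 4.35 in the other mutants, none of them detected. Rab3b was at 5.15 in testis mutant 1, against 4.47 to 4.56 in the other mutants. In brain, Rab4a was at 8.49 in mutant 4, against 8.69 to 8.71, and Rab12 at 7.32 in mutant 1, against 7.47 to 7.50 in the other mutants.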

How the results depend on the processing

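The alternatives were counted for the leading genotype values and for the called tissue differences of the top-ranked genes. Of these values of single probes, 1490 kept their direction and side of the threshold, 35 kept the direction and lost the call, 3 gained a call and 0 turned round. Tissue differences outside that count did turn round under median scaling. Rab3d went from -0.45 to 0.53 for brain minus muscle, and Rab8a from 0.43 to -1.06 for testis minus brain. Without background correction the Rab calls were 9 for brain minus muscle, 21 for testis minus brain and 12 for testis minus muscle, and without the fold threshold 59 and 57 for the first 2 of these. The genotype count in muscle was 1 without wild type 3 and 1 without wild types 1 and 3 (a lone wild type, assumed to vary like the mutants), and the count for the difference of genotype effects, brain minus muscle, was 1 without the mouse of wild type 3: Rab6b in each case. Of paralogue pairs with both members kept in both tissues, chosen after seeing the data, 9 passed the test for brain minus muscle and 9 for testis minus brain; under median scaling 2 and 1 of these pairs had opposite signs, against 7 and 4. Leaving out 1 library at a time gave 0 genotype calls in testis and in brain, 0 to 1 in muscle, 21 to 22 for brain minus muscle, 36 to 37 for testis minus brain and 36 to 38 for testis minus muscle. With the replicate block, 0 Rab probes were called between genotypes in each tissue, and over all muscle probes the calls were 35, against 12 without it; without the mouse as a block (no replicate block) brain minus muscle kept 21 calls. The slide could not be used as a block, as the tables used here do not name it. Probes near the background, such as those of Rab37, Rab27b and Rab3c, have differences that the correction sets in large part: Rab37 in brain ranged from -0.42 to -0.093.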

Other observations

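The levels of 5 further Rab genes were as follows. Rab24, a Rab linked to autophagy, was at 6.85 to 7.27 in testis, 8.69 to 8.89 in brain and 8.41 to 8.78 in muscle, lower in testis than in brain by 1.74 ± 0.077 and than in muscle by 1.51 ± 0.086. Rab2a, of endoplasmic reticulum to Golgi transport, was at 10.31 to 10.97 in testis, 12.00 to 12.35 in brain and 11.84 to 12.16 in muscle, and Rab14, of the Golgi to endosome route, was at 7.95 to 8.44, 9.67 to 10.28 and 9.39 to 9.61. Both were lower in testis than in each other tissue, by 1.46 and 1.29 for Rab2a and by 1.85 and 1.24 for Rab14. Rab32, which serves melanosomes and other lysosome-related organelles, was lower in testis than in muscle by 1.14 ± 0.18. Rab23, which acts in hedgehog signalling and cilia, was higher in brain than in muscle by 0.95 ± 0.08 in 7 of 7 mice, just short of 2-fold.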
